A study of Homo sapiens with 6 samples.

Results

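The genes described here are 31 genes of sterol and fatty acid synthesis measured in the human multiple myeloma line MM.1S. They were grouped by function, with earlier results of these data known, and comprise 18 enzymes of the sterol branch, 8 enzymes of the fatty acid branch and 5 regulators. The list does not hold every enzyme of either pathway. A gene was read through probe sets whose platform annotation names that gene alone, and where it had several, the probe set with the highest mean log2 intensity was used. Of the 31, 28 had such a probe set, and 25 of these (14 sterol, 6 fatty acid and 5 regulator genes) passed the filter on dim probe sets and were tested among 6838 genes. MVD, TM7SF2 and FADS2 lay below the filter, CYP51A1 and FADS1 were read only by probe sets listed with several genes, and FDFT1 was not analysed here.

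The study measured total RNA of MM.1S cells exposed to enzastaurin for 3, 6 or 12 h, and of untreated cells taken at the same 3 times, on 6 arrays, 1 for every combination of treatment and time. Enzastaurin is a small-molecule inhibitor of protein kinase C beta, and its dose is not given in the sources used here. Nothing in the labels says whether the arrays came from separate cultures, so the spread behind the p-values may hold no difference between cultures. For the treatment test that spread joins 2 parts. The first is how a gene's ratio of enzastaurin over untreated differed between the 3 times, with 2 degrees of freedom. The second is the same spread in genes of like intensity, which weighed more, with 9.26 degrees of freedom. Both parts hold technical differences and any change of the ratio with time, which cannot be told apart. MM.1S is 1 cell line, and in bulk RNA fewer cells of a type and less RNA per cell cannot be told apart.

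Cholesterol is built from acetyl-CoA through mevalonate, isoprenoid diphosphates, squalene and lanosterol, and fatty acids are built from the same acetyl-CoA by way of malonyl-CoA. Transcription of both branches is driven by the sterol regulatory element-binding proteins, membrane-bound factors that SCAP escorts to the Golgi for cleavage when sterols are scarce and that INSIG proteins hold back in the endoplasmic reticulum when sterols are plentiful. Myeloma cells are malignant plasma cells, which carry an extensive endoplasmic reticulum for antibody secretion.

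Promoter windows of RefSeq (GRCh38.p14, 250 bases before to 50 bases after a transcription start) were matched by symbol for 27 of the 31 genes. This gave 37 windows, since some genes had several, and only some of these overlap one another. They were searched on both strands for CCAAT, the box bound by NF-Y, and for TCACNCCAC, the core of a sterol regulatory element. Matches of the 2 motifs could share a base at their ends and do not in the windows printed here. CCAAT stood in 24 of the 37 windows (64.9%), against 34.6% of the 35116 windows of the table. It stood in 15 of 20 windows of the sterol branch, in 7 of 11 of the fatty acid branch and in 2 of 6 of the regulators. The sterol regulatory element core stood in 1 of the 37, that of SREBF2, against 1.13% of all windows. A match is a description of the letters only, and a window without one says only that these letters are not in these 300 bases.

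The windows of 4 genes are shown, 3 as examples of genes described below and the fourth because it holds both motifs. They are written 5′ to 3′ on the strand of the gene, with capitals for CCAAT, for its reverse complement ATTGG, and for the sterol regulatory element core. MSMO1 has 4 CCAAT boxes, whose leftmost bases lie at -185, -139, -76 and -34 from the start (chr4:165327419-165327718, plus strand). LSS has 1 at -150 (chr21:46228725-46229024, minus strand). INSIG1 has 1 at -170 (chr7:155297628-155297927, plus strand). SREBF2 holds the core at -133 and CCAAT at -106 (chr22:41832855-41833154, plus strand).
MSMO1: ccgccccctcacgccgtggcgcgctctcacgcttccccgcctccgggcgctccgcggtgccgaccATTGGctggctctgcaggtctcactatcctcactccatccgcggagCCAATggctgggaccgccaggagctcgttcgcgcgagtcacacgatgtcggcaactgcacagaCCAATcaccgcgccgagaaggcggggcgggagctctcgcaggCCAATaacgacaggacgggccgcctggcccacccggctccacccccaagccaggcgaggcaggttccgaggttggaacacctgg
LSS: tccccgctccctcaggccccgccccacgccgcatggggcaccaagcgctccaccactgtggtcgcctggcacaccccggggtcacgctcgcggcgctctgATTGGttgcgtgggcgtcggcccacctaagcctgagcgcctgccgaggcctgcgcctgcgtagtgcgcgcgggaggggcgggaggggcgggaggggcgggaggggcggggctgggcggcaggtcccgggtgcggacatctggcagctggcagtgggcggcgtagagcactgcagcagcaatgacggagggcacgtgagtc
INSIG1: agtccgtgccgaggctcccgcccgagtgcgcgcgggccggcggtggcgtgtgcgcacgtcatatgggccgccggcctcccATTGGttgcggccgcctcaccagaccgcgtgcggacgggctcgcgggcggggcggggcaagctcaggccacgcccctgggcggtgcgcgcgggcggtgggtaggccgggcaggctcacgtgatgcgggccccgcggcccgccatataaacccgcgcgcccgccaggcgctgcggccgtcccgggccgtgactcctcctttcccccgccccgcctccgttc
SREBF2: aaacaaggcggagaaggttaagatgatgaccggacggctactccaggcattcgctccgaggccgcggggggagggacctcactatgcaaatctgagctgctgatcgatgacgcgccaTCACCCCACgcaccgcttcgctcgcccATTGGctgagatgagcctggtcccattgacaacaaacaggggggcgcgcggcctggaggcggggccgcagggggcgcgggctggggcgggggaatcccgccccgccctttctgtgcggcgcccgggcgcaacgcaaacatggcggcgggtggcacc

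Median intensity over all probe sets was 62.2 to 67.6 on the 6 arrays. All 7 plasma cell markers were measured, with geometric means of 146 to 5647 and summed intensities of 15783 to 19047 in enzastaurin-treated cells and 17289 to 21267 in untreated cells. Single markers differed more than these sums: at 12 h 5 of the 7 were lower with enzastaurin, and XBP1 and JCHAIN were higher. TNFRSF17, the receptor known as BCMA, had 2969.5, 2119 and 528 in enzastaurin-treated cells, against 3003, 4308 and 4474 in untreated cells. SDC1 had 1229 in enzastaurin-treated cells at 12 h, against 3278 in untreated cells, and JCHAIN 7091, against 3874. The part of these marker differences in the results was not tested. The 6 T and NK cell markers had geometric means of 8.51 to 42.0, and the 5 monocyte markers 2.04 to 36.9, all under the geometric mean of 63.3 that the filter required, and LYZ was at or near 0. Ribosomal RNA signal differed between arrays and did not follow treatment. The mean log2 intensity of ribosomal RNA probe sets was 9.99, 3.79 and 3.02 in enzastaurin-treated cells at 3, 6 and 12 h, and 3.39, 11.98 and 9.29 in untreated cells. The log2 ratio of the 3′ over the 5′ ACTB probe set was 2.004, 0.57 and 0.86 in enzastaurin-treated cells and 1.89, 1.16 and 1.60 in untreated cells. With ribosomal RNA intensity as a covariate, 0 of the 25 genes passed the test, as without it. Since 0 passed either way, this count cannot show how the ratios depend on ribosomal RNA signal. That dependence was not tested at single times.

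Most of the tested genes of cholesterol synthesis had higher intensities in enzastaurin-treated cells than in untreated cells at 3 h. At 3 h, 12 of the 14 sterol genes had a log2 ratio of enzastaurin over untreated above 0, with a median of 0.50, while 46.4% of all genes tested were above 0 and their median was -0.04. At 6 h, 10 of 14 were above 0 (54.4% of all genes), with a median of 0.25, against 0.06 over all genes. At 12 h, 9 of 14 were below 0 (61.1% of all genes), with a median of -0.25, against -0.18 over all genes. No gene among the 25 passed the test over the 3 times in either direction. The 12 h share of sterol genes is therefore close to the background, while the 3 h share stands above it. These counts of signs were chosen after the values had been seen, and each single time rests on 1 array of each treatment.

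**Figure D1:**
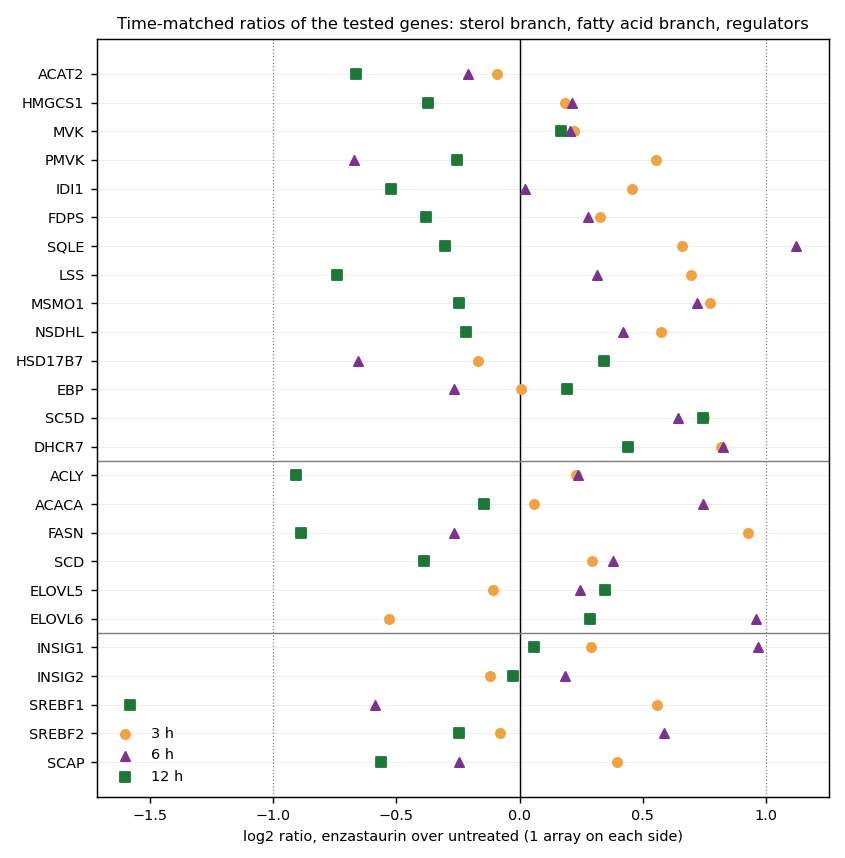
Log2 ratio of enzastaurin over untreated cells (x axis) for each of the 25 tested genes at 3, 6 and 12 h, by gene group, with 1 array on each side of a ratio and dotted lines at 2-fold. At 3 h 19 of 25 points lie right of 0, at 6 h 18 do, and at 12 h 17 lie left of 0.

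In the mevalonate part of the sterol branch, which makes the isoprenoid diphosphates, the medians over 6 genes were 0.27, 0.11 and -0.38 at 3, 6 and 12 h. ACAT2, the cytosolic thiolase that joins acetyl-CoA units, had intensities of 295, 285 and 282 in enzastaurin-treated cells, against 314, 329 and 447 in untreated cells. It was lower at each time and its groups did not overlap, with a mean log2 ratio of -0.32 (SE 0.30, limma adjusted p = 0.986) that was -0.15 without the 12 h arrays. It was the only gene of the 25 with non-overlapping groups in that direction, a pattern that 7.18% of all genes showed. It was also the only gene of the 25 below 0 at all 3 times, as were 14.2% of all genes.

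HMGCS1, which makes HMG-CoA, had 520.5, 727 and 409 in enzastaurin-treated cells, against 458, 626 and 530.4 in untreated cells. IDI1, the isomerase of isopentenyl diphosphate, had 1999, 1693 and 1189.5 in enzastaurin-treated cells, against 1458, 1667 and 1707 in untreated cells. FDPS, the synthase of farnesyl diphosphate, had 1776, 2045 and 1787 in enzastaurin-treated cells, against 1417, 1688 and 2323 in untreated cells. On the probe sets used, all 3 genes were higher with enzastaurin at 3 and 6 h and lower at 12 h, so that their mean log2 ratios came to 0.01, -0.01 and 0.07. The other, dimmer HMGCS1 probe set inside the filter had ratios of 0.14, -0.006 and 0.11. The 6 h and 12 h signs of HMGCS1 therefore depend on the probe set. The sign of the IDI1 mean was not stable: it was 0.05 with equal array medians. The probe set used for IDI1 is of a type whose probes can also match related transcripts.

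MVK, mevalonate kinase, was at 0.22, 0.20 and 0.17 in time-matched log2 ratio (mean 0.20, SE 0.29, limma adjusted p = 0.997). PMVK, which adds the next phosphate, had 0.55, -0.67 and -0.25, with no common direction. MVD, the decarboxylase that follows, lay below the filter: its intensities were 25.1, 27.9 and 40.5 in enzastaurin-treated cells, against 8.68, 11.6 and 13.8 in untreated cells. Its groups did not overlap, but these intensities are in the range of the T cell and monocyte markers, and without the filter its limma adjusted p was 0.750.

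In the squalene and ring part, where squalene is cyclised and trimmed to cholesterol, the medians over 8 genes were 0.68, 0.53 and -0.01. SC5D, a sterol desaturase, had 325, 359 and 486 in enzastaurin-treated cells, against 194, 229.8 and 291 in untreated cells. Every enzastaurin value lay above every untreated value. The mean log2 ratio was 0.71 (SE 0.29, 95% interval 0.08 to 1.34, limma adjusted p = 0.835), a 1.64-fold difference that did not pass the test over all genes. DHCR7, the reductase that yields cholesterol, had 331, 690.4 and 639 in enzastaurin-treated cells, against 188, 389.6 and 472 in untreated cells. It was higher with enzastaurin at each of the 3 times although the groups overlapped, with a mean of 0.69 (SE 0.29, 95% interval 0.06 to 1.33, limma adjusted p = 0.850).

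SQLE, squalene epoxidase and a rate-limiting step of the pathway, had 458, 503 and 300.2 in enzastaurin-treated cells, against 289.9, 231 and 371 in untreated cells. Its log2 ratio of 1.12 at 6 h made it the only gene of the 25 at least 2-fold higher at 6 h, as 5.6% of all genes were. Its mean over the 3 times was 0.49 (SE 0.34, limma adjusted p = 0.980), and it was 0.18 without the 6 h arrays and 0.89 without the 12 h arrays. MSMO1, a methylsterol oxidase, had 1452, 2667 and 1691 in enzastaurin-treated cells, against 849, 1620.3 and 2004 in untreated cells. The ratio was 0.77 at 3 h and 0.72 at 6 h but -0.24 at 12 h, with a mean of 0.42 (SE 0.26, limma adjusted p = 0.980) that ranged from 0.24 to 0.75 with 1 time left out. NSDHL, which acts with MSMO1 in removing methyl groups, had 202, 246 and 192 in enzastaurin-treated cells, against 136, 184 and 223 in untreated cells, the same order of signs. Its mean of 0.26 ranged from 0.10 to 0.50 with 1 time left out. LSS, which closes the ring to lanosterol, had 1476, 2048 and 1252 in enzastaurin-treated cells, against 911, 1646 and 2091 in untreated cells. Its ratio moved from above 0 to below 0 over the times, at 0.70, 0.32 and -0.74.

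EBP, a sterol isomerase, had log2 ratios of 0.01, -0.27 and 0.19, and HSD17B7, a ketosteroid reductase, had -0.17, -0.66 and 0.34. Neither kept 1 direction, and the HSD17B7 probe set is of the type that can also match related transcripts. TM7SF2, a sterol reductase below the filter, had 40.2, 54.8 and 59.1 in enzastaurin-treated cells, against 10.2, 38.3 and 51.7 in untreated cells. CYP51A1, the lanosterol demethylase, was not analysed here.

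**Figure D2:**
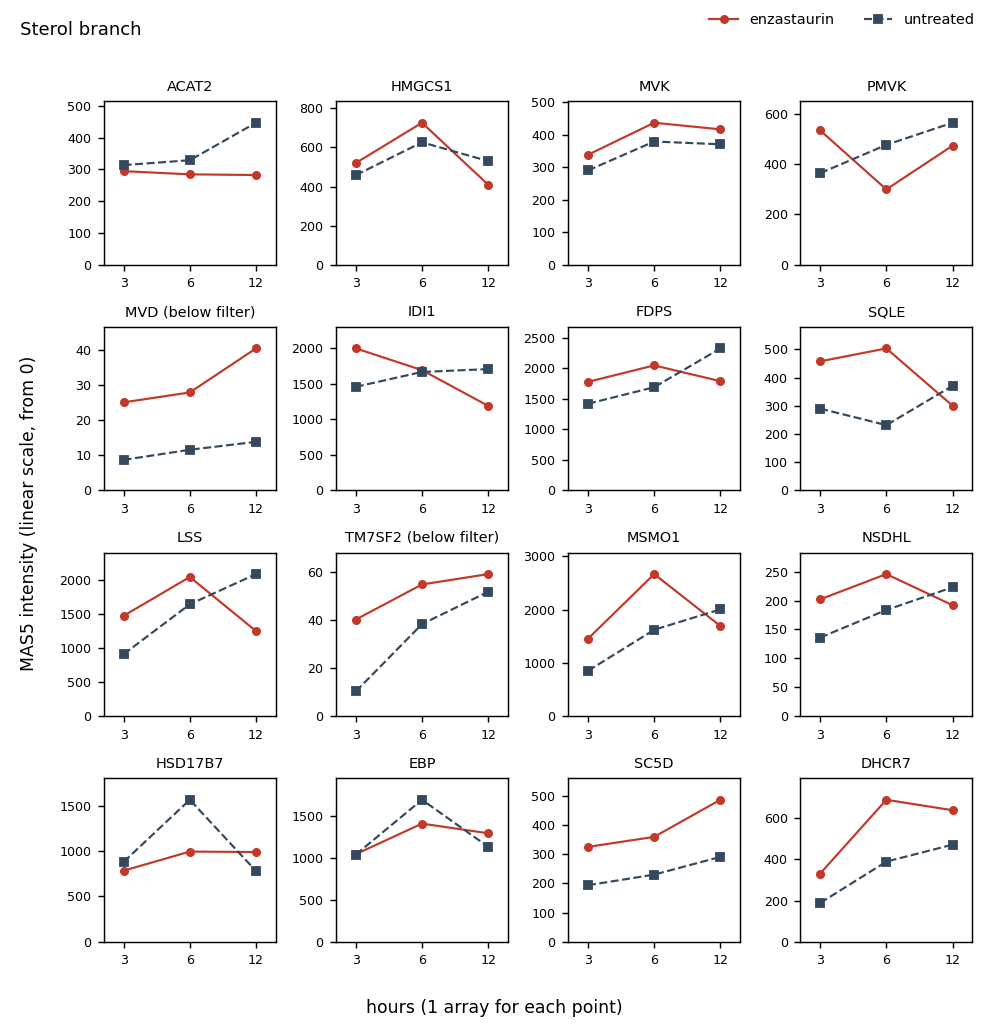
Probe set intensity (y axis, MAS5, linear scale from 0) against hours for 14 tested sterol branch genes and for MVD and TM7SF2, which lay below the filter, with 1 array at each point, enzastaurin and untreated drawn as separate lines. In the LSS, MSMO1 and NSDHL panels the untreated line climbs at each time, while the enzastaurin line peaks at 6 h and lies below it at 12 h.

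The levels behind these ratios had different shapes in the treatments. In untreated cells, 9 of 14 sterol genes had 3 h below 6 h below 12 h (ACAT2, DHCR7, FDPS, IDI1, LSS, MSMO1, NSDHL, PMVK and SC5D), an order found in 17.1% of all genes. In enzastaurin-treated cells, 10 of 14 had their highest intensity at 6 h, as 33.9% of all genes did, and 7 of the 8 ring genes were among them, with SC5D the exception. Over all 25 genes the counts were 12 for the untreated order and 14 for the 6 h peak. The ratios and the untreated order share the same untreated arrays, so they are not independent descriptions, and both patterns were chosen after the values had been seen.

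Ratios above 0 at 3 and 6 h and below 0 at 12 h were found in 10 of the 25 genes, against 11.7% of all genes. They were the sterol genes FDPS, HMGCS1, IDI1, LSS, MSMO1, NSDHL and SQLE, and the fatty acid genes ACACA, ACLY and SCD. On the probe sets used, the sequence stood in 7 of 14 sterol genes, 3 of 6 fatty acid genes and 0 of 5 regulators. With the median over probe sets it stood in 6 sterol genes, in SCD alone of the fatty acid branch, and in INSIG1 of the regulators, so the counts of the smaller groups rest on the probe set chosen. Ratios above 0 at all 3 times were found in 4 genes (DHCR7, INSIG1, MVK and SC5D), against 9.14% of all genes. With the median over probe sets INSIG1 was not among them and ACACA and ACLY were.

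In the fatty acid branch, the medians over 6 genes were 0.15, 0.31 and -0.27 at 3, 6 and 12 h. ACLY, which cleaves citrate to cytosolic acetyl-CoA, had 1430.3, 1364 and 889 in enzastaurin-treated cells, against 1219, 1156 and 1664 in untreated cells. Its 12 h ratio of -0.91 set the mean of -0.15 (SE 0.28, limma adjusted p = 0.999), which was 0.23 without the 12 h arrays. ACACA, acetyl-CoA carboxylase and the committed step to fatty acids, had 243, 227 and 208 in enzastaurin-treated cells, against 233, 135 and 231 in untreated cells. The groups overlapped, and the mean of 0.22 (SE 0.31, limma adjusted p = 0.997) was -0.04 without the 6 h arrays.

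FASN, the fatty acid synthase, had 287, 409 and 277 in enzastaurin-treated cells, against 151, 492 and 512 in untreated cells. Only at 3 h was it higher with enzastaurin, with log2 ratios of 0.93, -0.27 and -0.89. SCD, which places the double bond of oleate, had 3404, 4209.8 and 2955 in enzastaurin-treated cells, against 2780.4, 3234 and 3864 in untreated cells. On the probe sets used, its untreated intensities climbed with time while the enzastaurin ones peaked at 6 h, as for LSS and MSMO1. Other SCD probe sets also peaked at 6 h with enzastaurin, but their untreated intensities did not climb at each time. These were 330, 662 and 605 on 1 of them, 211, 122 and 246 on another, and 91.0, 54.5 and 81.8 on the dimmest.

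ELOVL5, an elongase of polyunsaturated chains, had 1797, 2211 and 2362 in enzastaurin-treated cells, against 1935, 1865 and 1859 in untreated cells. Its ratios were -0.11, 0.25 and 0.35 (mean 0.16, SE 0.21, limma adjusted p = 0.991), with signs opposite to most of the branch at 3 and 12 h and the same sign at 6 h. The mean ranged from 0.070 to 0.30 with 1 time left out. The other ELOVL5 probe set inside the filter had ratios of 0.06, 0.29 and 0.48, so the 3 h sign depends on the probe set. ELOVL6, the elongase of palmitate, had 58.2, 83.1 and 118 in enzastaurin-treated cells, against 83.9, 42.8 and 97.1 in untreated cells. It was the dimmest gene of the branch inside the filter, and its mean of 0.24 (SE 0.35, limma adjusted p = 0.999) was -0.12 without the 6 h arrays. FADS2, a desaturase just outside the filter, had 56.8, 40.1 and 69.9 in enzastaurin-treated cells, against 40.3, 33.2 and 56.2 in untreated cells. FADS1, its partner desaturase, was not analysed here.

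**Figure D3:**
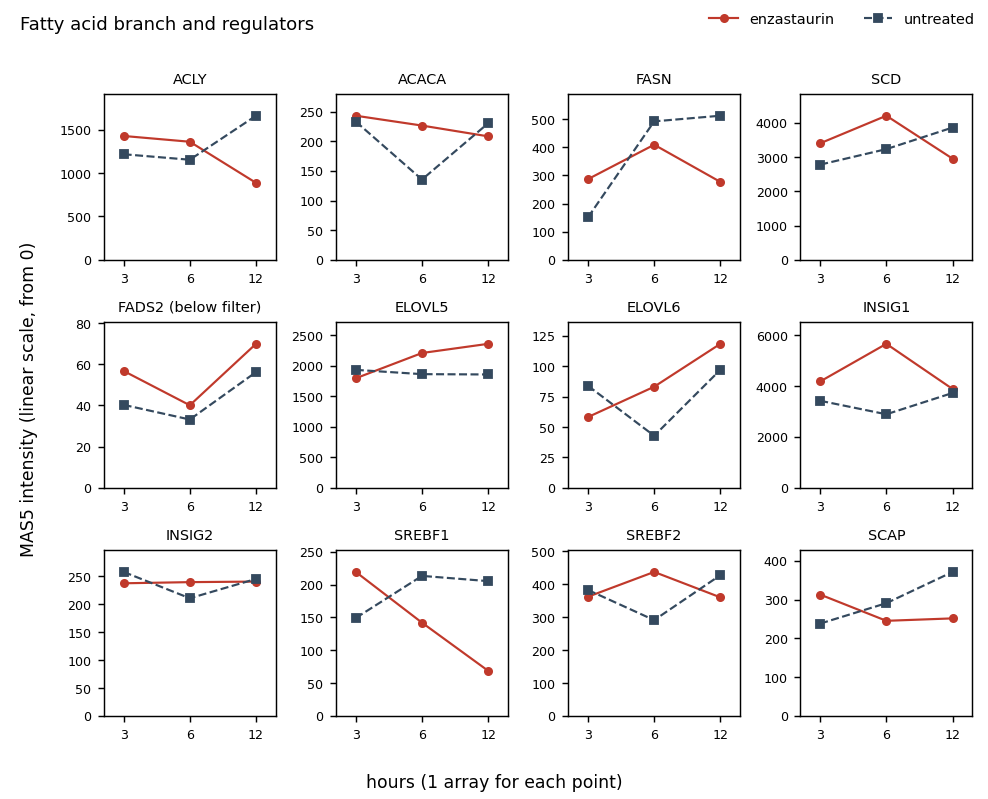
Probe set intensity (y axis, MAS5, linear scale from 0) against hours for the fatty acid branch genes, FADS2 below the filter among them, and the regulators, with 1 array at each point, enzastaurin and untreated drawn as separate lines. The INSIG1 enzastaurin line peaks at 5664 at 6 h, and the SREBF1 enzastaurin line descends to 68.7 at 12 h, against 205 in untreated cells.

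Among the regulators, the medians over 5 genes were 0.29, 0.19 and -0.25. INSIG1, which retains the SCAP complex in the endoplasmic reticulum and is itself a target of the pathway, had 4183, 5664 and 3888 in enzastaurin-treated cells, against 3425, 2893 and 3731 in untreated cells. Every enzastaurin value lay above every untreated value, although the 12 h pair differed by 0.06 on the log2 scale. The mean log2 ratio was 0.44 (SE 0.19, 95% interval 0.01 to 0.86, limma adjusted p = 0.904), a 1.36-fold difference. The mean was 0.17 without the 6 h arrays and 0.19 with the median over probe sets. INSIG1 and SC5D were the 2 genes of 25 with non-overlapping groups in this direction, which 3.47% of all genes showed.

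SREBF1, the gene of the factor with the stronger tie to fatty acid synthesis, had 219, 142 and 68.7 in enzastaurin-treated cells, against 149, 213 and 205 in untreated cells. Its intensity with enzastaurin was higher than untreated at 3 h and lower at 6 and 12 h, with log2 ratios of 0.56, -0.59 and -1.58 (mean -0.54, SE 0.39, limma adjusted p = 0.980). Without the 3 h arrays the mean was -1.08 (limma adjusted p = 0.129), and without the 12 h arrays it was -0.015. It was the only gene of the 25 at least 2-fold lower at 12 h, as 10.4% of all genes were. SREBF2, the gene of the factor with the stronger tie to sterol synthesis, had 362, 438 and 361 in enzastaurin-treated cells, against 383, 291 and 428 in untreated cells. The groups overlapped, and the mean of 0.09 was -0.16 without the 6 h arrays.

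SCAP, the escort protein, had 313, 245 and 251 in enzastaurin-treated cells, against 238, 291 and 371 in untreated cells. Its mean of -0.14 (SE 0.31, limma adjusted p = 0.999) was 0.07 without the 12 h arrays. INSIG2, a relative of INSIG1 with the same role, had 238, 239.6 and 241 in enzastaurin-treated cells, against 258, 211 and 245 in untreated cells. Its enzastaurin intensities lay inside the untreated range.

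The test over the 3 times passed 2 genes of 6838 as higher (0.0292%) and 2 as lower (0.0292%) with enzastaurin, and 0 of the 25 genes in either direction. At an unadjusted p under 0.05, 3 of the 25 genes stood out, DHCR7, INSIG1 and SC5D, against 5.41% of all genes. The adjusted p of each of these 3 lay above 0.05 under all 12 settings tried, with lowest values of 0.334 for DHCR7, 0.255 for INSIG1 and 0.308 for SC5D. Among the 25 genes, DHCR7, MVK and SC5D were the 3 whose mean kept its sign and stayed within 1.5 times its value whichever time was left out. With 3 time-matched pairs, and with changes of the ratio over time counted as spread, the intervals are wide. The SE weighed the spread of genes of like intensity more than that of the gene itself. SC5D had an SE of 0.29 although its ratios were 0.75, 0.64 and 0.74 at 3, 6 and 12 h. A difference that misses the threshold is not shown to be absent.

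The slope of the log2 ratio on log2 hours was fitted to ask whether the ratio moved with time. In this fit the SE of a gene was set by the spread of genes of like intensity, not by its own spread. Of all genes 0.512% passed with an upward slope and 0.921% with a downward one, while 0 of the 25 passed either way. At an unadjusted p under 0.05, 3 of 25 genes had a downward slope, against 7.25% of all genes. They were SREBF1 at -1.07 for each doubling of time (SE 0.38, limma adjusted p = 0.143), FASN at -0.91 (SE 0.37, limma adjusted p = 0.261) and LSS at -0.72 (SE 0.28, limma adjusted p = 0.226). The slope lay below 0 in 20 of the 25 genes, against 57.0% of all genes, with a median of -0.29, against -0.07 over all genes. With equal array medians these were 18 of 25 and 50.5%, and the medians were -0.22 and -0.0050.

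Ratios of at least 2-fold at single times were few. At 3 h, 0 of the 25 genes were higher or lower by that much, against 1.89% and 2.65% of all genes. At 6 h, SQLE alone was higher and 0 were lower, against 3.22% of all genes lower. At 12 h, 0 were higher, against 3.88% of all genes, and SREBF1 alone was lower. These shares are at or below those of all genes at each time, and the pattern at 3 and 6 h is made of many ratios under 2-fold.

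Set side by side on the probe sets used, the medians of the branches lay apart at 3 h and close together at 6 and 12 h. The sterol median exceeded the fatty acid median by 0.36 at 3 h, while the differences were -0.07 at 6 h and 0.02 at 12 h. The sterol median stood 0.54, 0.19 and -0.07 from the median of all genes at 3, 6 and 12 h, and the fatty acid median 0.18, 0.26 and -0.09. When the arrays were set to equal medians the 12 h median of all genes moved to 0.01 and those of the branches to -0.06 and -0.08, so most of the 12 h value of both branches goes with the shift of all genes. The 3 h difference was 0.31 to 0.44 under the 6 alternatives tried. The closeness at 12 h was less stable. With the median over probe sets the branches lay apart at 12 h too, with the fatty acid median above 0 and the sterol median below it. With 14 and 6 genes read on the same pair of arrays, the genes are not replicates and the difference between the branches was not tested.

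**Figure D4:**
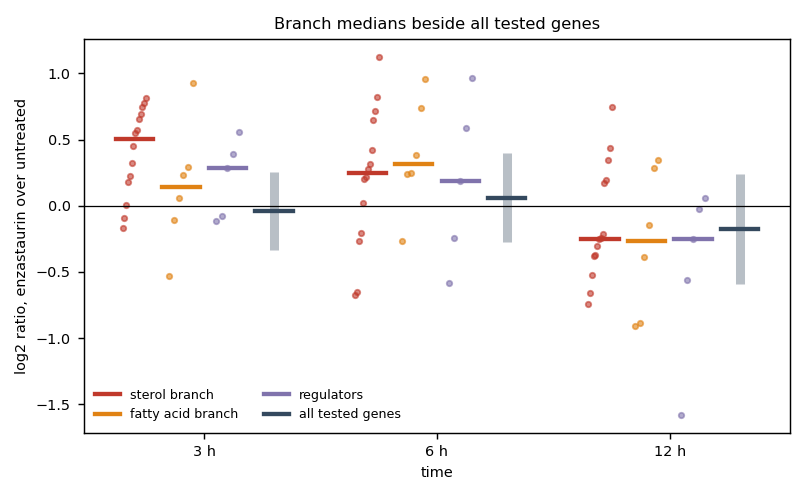
Log2 ratio of enzastaurin over untreated (y axis) at 3, 6 and 12 h, with a point for each tested gene of the sterol branch, the fatty acid branch and the regulators, a horizontal bar at each median, and for all 6838 genes the median with a grey bar over the middle 50% of genes. At 3 h the sterol median is 0.50 and the fatty acid median 0.15, and at 12 h they are -0.25 and -0.27, where all genes stand at -0.18.

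Probe sets of the same gene did not always give the same picture. Of the 25 genes, 13 had more than 1 probe set inside the filter, and for ACLY, IDI1 and SREBF2 the means of these had opposite signs. Other ACLY probe sets had ratios of 0.17, 0.35 and 0.50, and of -0.19, 0.57 and 0.01, so that the low 12 h value of ACLY appeared on 1 of its 3. For IDI1 the other probe set had 0.69, 0.15 and -0.77, the same order of signs as the one used. The other SREBF2 probe set had 0.49, -0.79 and -0.19.

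Other SQLE and INSIG1 probe sets had larger 3 h ratios than those used. Another SQLE probe set had 513, 407 and 182 in enzastaurin-treated cells, against 147, 189.5 and 300.5 in untreated cells, or log2 ratios of 1.81, 1.10 and -0.72. The other INSIG1 probe sets had 0.65, 0.81 and -0.71, and 1.17, 1.05 and -0.41. They repeat the early ratios above 0 but put the 12 h ratio below 0, so that the 12 h value of INSIG1 depends on the probe set. The other DHCR7 probe set likewise had 0.59, 0.72 and -0.42, and the other LSS probe set had 1.06, 0.18 and 0.05.

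At the far end stood NSDHL and EBP. Another NSDHL probe set had 36.6, 615 and 564 in enzastaurin-treated cells, against 334, 38.3 and 30.6 in untreated cells, which gives log2 ratios of -3.19, 4.01 and 4.20. It was high on the 3 arrays where ribosomal RNA probe sets were low and low on the 3 where they were high, and the part of this in the NSDHL values was not tested. The other EBP probe sets had 0.07, -0.15 and -1.47, and -0.06, 0.15 and -2.54, so that EBP at 12 h ranged from 0.19 to -2.54 by probe set. Other SCD probe sets had 6 h ratios of 2.21 and 2.34, against 0.38 for the one used and 0.34 for the fourth.

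**Figure D5:**
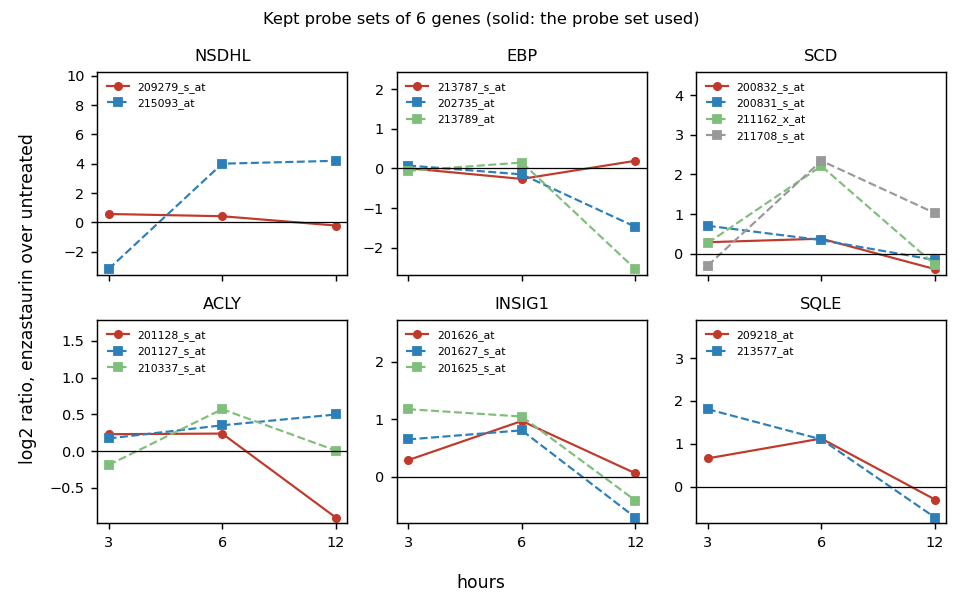
Log2 ratio of enzastaurin over untreated (y axis) against hours for every probe set inside the filter of NSDHL, EBP, SCD, ACLY, INSIG1 and SQLE, the one used drawn solid. The y axes differ between panels, and the dashed NSDHL line runs from -3.19 at 3 h to 4.20 at 12 h while the solid one stays between 0.57 and -0.22.

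In 5 lists of neighbouring pathways the 3 h medians lay between -0.19 and 0.06. Single genes of these lists lay further apart at 3 h, from -1.21 for ACSL1 to 1.26 for SLC25A1. Ratios well above 0 at 3 h were therefore not confined to the sterol genes. Among 13 tested genes of sterol uptake, storage and efflux the medians were 0.00, 0.27 and 0.14 at 3, 6 and 12 h, and 0 passed either test. NPC2, which moves cholesterol out of lysosomes, had 647, 1137 and 1240.3 in enzastaurin-treated cells, against 471, 587 and 658 in untreated cells, with a mean of 0.78 (SE 0.27, limma adjusted p = 0.695). ABCG1, a sterol exporter, had 100.3, 56.6 and 24.9 in enzastaurin-treated cells, against 144, 78.9 and 72.4 in untreated cells, with a mean of -0.85 (SE 0.34, limma adjusted p = 0.829). NPC2 was thus higher and ABCG1 lower with enzastaurin at each time, and neither passed the test.

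Of the 10 tested genes of isoprenoid use, 0 passed either test and the medians were -0.07, -0.03 and -0.26. PDSS2, of the ubiquinone side chain, had a mean of -0.66 and DHDDS, of dolichol synthesis, 0.58. Likewise 0 of 8 genes of fatty acid supply and elongation passed, with medians of -0.19, -0.01 and -0.61, and their largest means were -0.67 for ACACB, the mitochondrial acetyl-CoA carboxylase, and -0.43 for HACD3, a dehydratase of elongation. For fatty acid activation and glycerolipid synthesis, 0 of 8 passed, with medians of 0.06, 0.07 and -0.04. Their largest means were 0.43 for ACSL4 and -0.42 for ACSL5, both acyl-CoA synthetases. For fatty acid oxidation, 0 of 9 passed, with medians of 0.04, 0.04 and -0.09. ACADVL, a dehydrogenase of very long chains, had a mean of 0.45 and HADHA, of the trifunctional protein, -0.35.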

How the data were processed

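The authors deposited 1 linear intensity for each probe set and array; MAS5 is the tool that the submitters' processing notes name, and its version, scaling target and detection calls are not known here. All 6 columns were matched to samples through their labels. Of 22277 probe sets, 62 were controls, 19064 were paired with 1 gene, 1043 with several and 2108 were not listed.

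Intensities were floored at 1 and log2 transformed, and the authors' scaling was kept. Probe sets in the upper 50% of mean log2 intensity were kept (a geometric mean of at least 63.3), and a gene was read by its brightest probe set. limma 3.58.1 in R 4.3.3 (lmFit, eBayes with trend) was fitted on 6838 genes with time as a block, so that the treatment term averages the log2 ratios of the 3 times, and with a slope on log2 hours (2 and 1 residual degrees of freedom). P-values were two-sided and adjusted by Benjamini-Hochberg over all genes, with a threshold of 0.05. The number of arrays limits the precision.

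Values in every array were to be given for the 6 sterol, 4 fatty acid and 3 regulator genes with the largest mean ratios in size and for genes whose probe sets differ in sign; the values of the other genes were added after they had been seen. The 2 genes with the largest means are named in each companion list. Members and lists were chosen with earlier results of these data known.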

Additional observations from a re-analysis of the deposited data

How the results depend on the processing

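Of 396 comparisons of a result with an alternative, 342 kept it, 36 moved it and 18 turned its direction. A mean ratio that held its sign could change in size and still count as kept. ACAT2, at -0.32, counted as kept at -0.15 without the 12 h arrays, and ELOVL5, at 0.16, at 0.070 without them. The 342 therefore do not count results of unchanged size. Causes were not tested except where the alternative itself leaves out arrays, probe sets or genes. No gene of the 25 passed the treatment test under any of the 12 settings. Under the slope test 1 did, NSDHL, when probe sets were summarised by their median (slope 1.65, limma adjusted p = 0.00124), which brings in its other probe set.

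Over all genes, the treatment test called 4, against 1 with no filter, 0 with a prior without trend, 2 with no time block, 74 with ribosomal RNA intensity as a covariate, and 0 to 247 when 1 time was left out (247 without 3 h, 0 without 6 h or 12 h). The slope test called 98, against 0 with equal medians, 7 with quantile normalization and 151 with no filter.

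At 12 h the sterol median of -0.25 was -0.063 with equal medians and -0.059 with quantile normalization. The fatty acid median of -0.27 was -0.080 and -0.060 under these, -0.15 with no filter, -0.15 without ACLY and 0.17 with the median over probe sets. The sterol minus fatty acid difference of 0.02 at 12 h was -0.085 with no filter, -0.42 with the median over probe sets and -0.10 without ACLY, and that of -0.07 at 6 h was -0.19 with the median over probe sets. The 12 h median of all genes, -0.18, was 0.0098 with equal medians.

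Counts of genes at least 2-fold apart moved with no filter to 2 higher at 3 h, 2 at 6 h and 1 at 12 h. With the median over probe sets they were 1 higher and 1 lower at 3 h, 3 higher at 6 h, and 1 higher and 2 lower at 12 h, and with quantile normalization 2 were higher at 6 h.

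Among the genes with the largest mean ratios of each group and those whose probe sets differ in sign, mean ratios changed sign as follows. ACLY was 0.34 with the median over probe sets, and -0.34 to 0.23 with 1 time left out. IDI1 was 0.053 with equal medians, 0.061 with quantile normalization, 0.0052 with the median over probe sets, 0.11 with the ribosomal RNA covariate and -0.25 to 0.24 with 1 time left out. SCAP was 0.0050 with that covariate and -0.40 to 0.074 with 1 time left out. SREBF2 was -0.038 with the median over probe sets and -0.16 to 0.25 with 1 time left out. ACACA was -0.043 to 0.40 and ELOVL6 -0.12 to 0.62 with 1 time left out. Genes outside that choice also changed sign with 1 time left out. In the sterol branch these were HMGCS1 (-0.095 to 0.20), PMVK (-0.46 to 0.15), FDPS (-0.051 to 0.30) and LSS (-0.21 to 0.51). HSD17B7 (-0.41 to 0.087) and EBP (-0.13 to 0.099) did so too. The others were FASN (-0.58 to 0.33), SCD (-0.048 to 0.34) and INSIG2 (-0.073 to 0.078).

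The counts of signs and orders that were recomputed, chosen after the values had been seen, stayed within 1.5 times under the 5 alternatives of scaling, low values, filter and probe set, with these exceptions. Genes above 0 at all 3 times were 7, against 4, with no filter, when MVD, TM7SF2 and FADS2 joined. With the median over probe sets, ratios above 0 at 3 and 6 h and below 0 at 12 h stood in 1 fatty acid gene, against 3, and in 1 regulator, against 0.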
